A study of Mus musculus with 12 samples.

Results

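Homologous recombination and the Fanconi anemia pathway repair broken and crosslinked DNA, and 37 of their genes were followed across 12 libraries of mouse hematopoietic stem cells. The genes were taken by name from a table of 20457 genes. They occupy 38 lines of it, because Rad54b is listed under 2 Ensembl identifiers. The lines of Rad51b and Rad51d, which the table calls by older symbols, were matched by identifier. All 38 lines passed the filter on low values, under which at least 3 of the 12 libraries must reach 10 on the linear scale.

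The cells were bone marrow stem cells of C57BL/6 mice, sorted by FACS into those with and those without IL27RA, a subunit of the receptor for the cytokine IL27. Old mice were 28 months of age and young mice were 2 months. The groups were old IL27RA+, old IL27RA-, young IL27RA+ and young IL27RA-, with 3 libraries each. Every library was made from 50 cells with Smart-Seq2, which amplifies full-length cDNA and adds no molecular identifiers. No treatment or engineered allele is given for any group. The labels of old IL27RA- replicate 1 disagree: its source is named as young, but its title and age say old, and it was kept as old. Whether libraries of a group are from different mice is not stated, so the tests reflect the spread among these libraries alone, which may be technical.

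Homologous recombination copies an intact sister strand to mend a double-strand break. Nucleases first trim the broken ends to single strands, and BRCA1, BRCA2 and their partners, the paralog complexes of Rad51b, Rad51c, Rad51d, Xrcc2 and Xrcc3, and the RAD54 and RAD52 proteins then act in the search for the intact copy and the pairing with it. The Fanconi pathway handles crosslinks that stall replication forks: a core complex attaches ubiquitin to FANCD2 and FANCI, which bring in nucleases, helicases and the recombination machinery. ATM and ATR are the kinases that signal breaks and stalled forks, through CHEK2 and CHEK1. Because a sister strand is needed, many of these genes are transcribed mainly in dividing cells, and hematopoietic stem cells, which are mostly quiescent, depend on the Fanconi pathway to last through life.

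RefSeq promoter windows (build GRCm38.p6), from 250 bases before to 50 bases after each gene start, were held for 29 of the 37 genes in 32 windows. No window was held for Rad51d, Xrcc2, Rad54b, Rad50, Nbn, Rbbp8, Exo1 and Fancd2. The core of the E2F site, a motif of many genes of the S phase, was searched as TTCCCGC or TTGGCGC on both strands. It was found in 15 of the 32 windows (46.9%), against 2236 of all 32851 windows in the RefSeq table (6.81%). The median GC content was 58.8% in the 32 windows and 52.7% in all windows. The CCAAT box, searched as CCAAT on both strands, was in 20 of the 32 windows (62.5%) and in 37.4% of all windows. The cell cycle homology region, searched as TTTGAA on both strands, was in 2 of the 32 windows (6.25%), those of Bard1 and Rad51b, and in 17.9% of all windows. On the reverse strand the second E2F word reads GCGCCAA and can overlap a CCAAT box. A match describes the letters in the window and nothing more.

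The windows below belong to 6 genes whose levels separated old IL27RA+ from old IL27RA- libraries (described further on) and whose window holds an E2F core. They are printed 5′ to 3′ on the strand of the gene, with the E2F core in capitals. A second RefSeq window of Rad51c, for another start, holds no E2F core and is not shown. Of the 14 members that lay apart and higher in old IL27RA+ cells, 11 had a window, and 6 of these held an E2F core. Among all 29 genes with a window, 15 held one.
Brca2 (chr5:150522371-150522670, plus strand): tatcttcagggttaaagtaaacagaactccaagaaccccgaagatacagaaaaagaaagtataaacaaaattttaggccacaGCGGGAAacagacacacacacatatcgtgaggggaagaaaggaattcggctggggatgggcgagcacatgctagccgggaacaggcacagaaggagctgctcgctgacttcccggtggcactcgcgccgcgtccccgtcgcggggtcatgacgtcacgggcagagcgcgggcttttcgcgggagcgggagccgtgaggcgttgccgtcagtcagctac
Bard1 (chr1:71102923-71103222, minus strand): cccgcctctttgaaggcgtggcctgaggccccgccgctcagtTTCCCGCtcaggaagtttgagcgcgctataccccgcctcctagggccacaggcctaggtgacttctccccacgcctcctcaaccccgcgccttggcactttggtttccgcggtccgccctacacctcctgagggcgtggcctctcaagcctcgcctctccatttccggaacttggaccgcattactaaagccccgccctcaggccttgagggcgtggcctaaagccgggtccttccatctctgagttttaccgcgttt
Rad51c (chr11:87404905-87405204, minus strand): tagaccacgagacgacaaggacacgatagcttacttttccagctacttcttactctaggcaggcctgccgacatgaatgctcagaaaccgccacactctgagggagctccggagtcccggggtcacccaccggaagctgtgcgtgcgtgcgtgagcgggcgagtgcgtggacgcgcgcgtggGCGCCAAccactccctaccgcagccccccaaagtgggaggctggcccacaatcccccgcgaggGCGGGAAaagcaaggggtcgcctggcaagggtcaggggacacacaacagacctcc
Rad52 (chr6:119902448-119902747, plus strand): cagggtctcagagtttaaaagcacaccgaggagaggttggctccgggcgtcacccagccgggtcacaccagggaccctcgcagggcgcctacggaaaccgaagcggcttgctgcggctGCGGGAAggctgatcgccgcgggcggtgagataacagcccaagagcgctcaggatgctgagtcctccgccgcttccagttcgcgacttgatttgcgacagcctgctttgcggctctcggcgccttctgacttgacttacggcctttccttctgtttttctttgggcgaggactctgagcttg
Topbp1 (chr9:103305077-103305376, plus strand): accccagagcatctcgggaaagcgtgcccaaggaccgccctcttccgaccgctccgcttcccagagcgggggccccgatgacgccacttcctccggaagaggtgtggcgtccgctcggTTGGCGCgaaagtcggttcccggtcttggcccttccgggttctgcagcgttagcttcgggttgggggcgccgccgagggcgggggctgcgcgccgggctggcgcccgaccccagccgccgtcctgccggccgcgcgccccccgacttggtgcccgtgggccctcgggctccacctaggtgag
Chek1 (chr9:36726609-36726908, minus strand): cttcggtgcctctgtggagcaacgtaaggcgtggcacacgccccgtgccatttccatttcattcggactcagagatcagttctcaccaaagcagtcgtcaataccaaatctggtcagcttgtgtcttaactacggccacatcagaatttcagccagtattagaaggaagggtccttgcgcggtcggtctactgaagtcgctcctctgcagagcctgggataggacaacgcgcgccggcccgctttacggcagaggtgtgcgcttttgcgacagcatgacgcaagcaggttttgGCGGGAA
In the Rad51c window the E2F core occurs at 2 places, and in each of the other windows at 1 place. In Chek1 it lies after the start, at the very end of the window.

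The libraries held 11669083 to 24153167 reads in genes. Values are normalized counts, that is reads divided by a size factor per library, and tests were run on log2(normalized count + 1). On this scale 3 reads in a library, taken as the floor, correspond to 1.93 to 3.77 normalized counts, and the floor covers counting error only, since amplified reads are not independent molecules. All 12 markers of stem cells, among them Kit, Procr and Mecom, had reads in all 12 libraries. Their summed level ran from 70323 to 78591 normalized counts in old IL27RA+, from 84642 to 98083 in old IL27RA-, from 71350.1 to 76165 in young IL27RA+ and from 76872 to 92182 in young IL27RA- libraries. One library stood apart: old IL27RA- replicate 1 held 374212 normalized counts of the 6 B and plasma cell markers, chiefly antibody genes, against 682 to 1448 in each other library. Where the difference of a member is printed below and this library moved it by over 1.5 times, the value without it is also given. Not every difference that it moved is printed.

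Repair transcripts were read in most libraries, but not evenly. In old IL27RA+ cells all 38 lines had a read in every library. Reads were found for 36, 37 and 34 lines in old IL27RA- libraries, for 36, 37 and 35 lines in young IL27RA+ libraries, and for 37, 36 and 34 lines in young IL27RA- libraries. The 8 lines with a library at 0 were Brca1, Bard1, Rad51c, both Rad54b lines, Exo1, Fancd2 and Brip1. Members differed widely in how much libraries of a group disagreed. The SD within groups was lowest for Topbp1 (0.23 on the log2 scale), Fancl (0.31) and Trp53bp1 (0.33), and highest for Fancd2 (2.96), Exo1 (2.92) and Brca1 (2.70). Its median was 0.97 over the 38 lines, against 0.71 over the 14803 genes tested. Fancd2, Exo1 and Brca1 each had a library at 0, whereas Fanci (2.56) and Xrcc3 (2.22) varied nearly as much with reads in all 12 libraries, and Rad51c, with 3 libraries at 0, had an SD of 1.06.

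**Figure D1:**
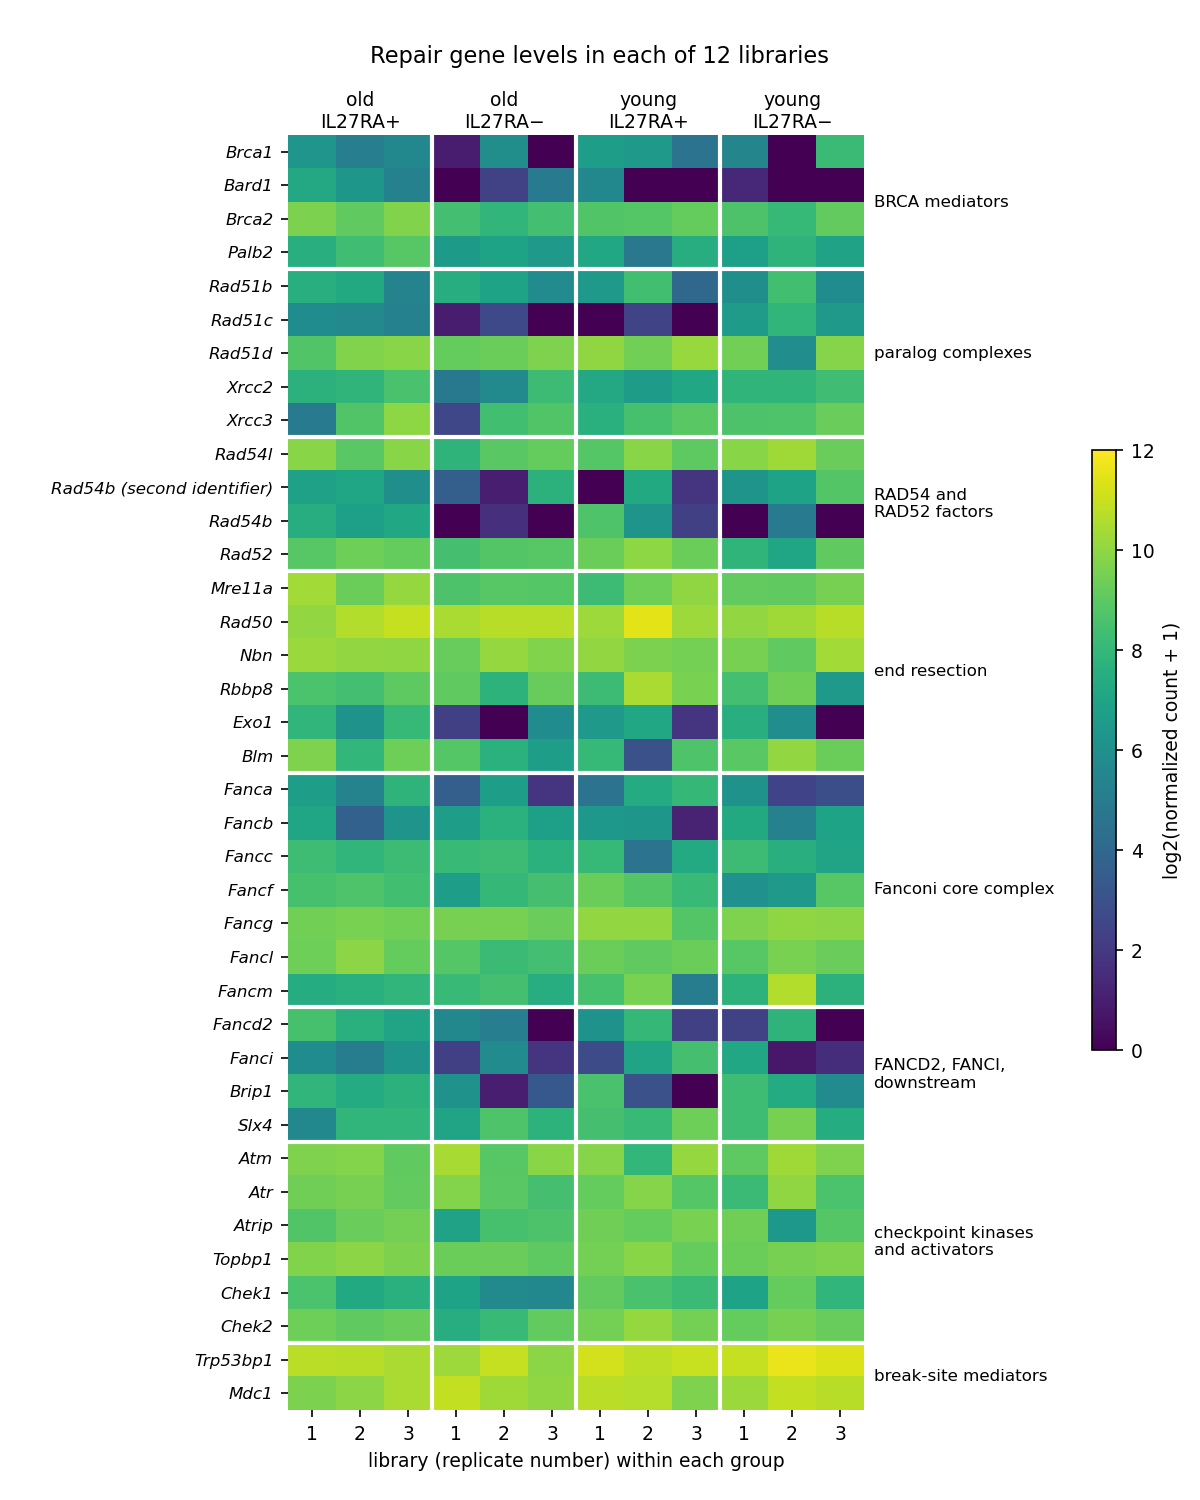
Levels of the 38 lines as log2(normalized count + 1), from dark (0) to yellow (12), in 12 libraries. Columns are the libraries of old IL27RA+, old IL27RA-, young IL27RA+ and young IL27RA- cells from left to right, and rows are ordered by role. Libraries at 0 fall in 8 lines and in no old IL27RA+ library.

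In old mice, IL27RA+ cells had higher mean levels of most repair transcripts than IL27RA- cells, but no single gene passed the test. The difference was positive for 30 of 38 lines (78.9%) and its median was 1.00 on the log2 scale, against 0.02 over all genes tested. No member passed the limma test at an adjusted p of 0.05, which 0.0203% of all genes did, and voom on the recovered reads also called 0. At an unadjusted p under 0.05 there were 11 members, all higher in old IL27RA+ cells (28.9%), against a background of 5.38% in either direction, and voom also gave 11. For 14 members (36.8%) every old IL27RA+ library lay above every old IL27RA- library, against 7.23% of all genes. Both counts include Bard1, which passed the filter only through its old IL27RA+ libraries. No member lay apart in the other direction, as 5.38% of all genes did.

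Without old IL27RA- replicate 1, the library rich in antibody transcripts, the difference was positive for 31 of 38 lines and its median was 0.62. Of the 38 differences, 17 moved by over 1.5 times, and 5 of these changed sign: Rad51b, Rad51d, Xrcc3, Rbbp8 and Atm. In all, 16 members lay above the 2 libraries left, a count that a smaller group raises by itself. The libraries were bulk pools, so fewer cells of a type and less RNA per cell cannot be told apart.

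Proliferation genes had higher values in the same fraction. All 26 of a list of replication and mitosis genes had a positive difference between old IL27RA+ and old IL27RA- cells. The median was 3.02 on the log2 scale, and 22 of the 26 lay apart and higher, against 7.23% of all genes. Of the 26, 2 passed the limma test, as 0.0203% of all genes did. They were Ncaph, a condensin subunit (8.54, adjusted p = 0.00216), and Uhrf1, which maintains DNA methylation at replication (7.46, adjusted p = 0.0295). Summed over the list, old IL27RA+ libraries held 33570.0, 22149 and 29763 normalized counts, and old IL27RA- libraries 6469, 10101 and 10406. The young libraries lay between or beside them, with 25897, 25685 and 11494 in IL27RA+ cells and 23055, 16378 and 19854 in IL27RA- cells. The part of proliferation in the repair gene differences was not tested.

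Macrophage markers were read more in most IL27RA+ libraries, and 1 of them, Vcam1, was called in young cells (background 0.0203%). Their sum ran from 1194 to 5417 normalized counts in old IL27RA+ and from 441 to 1195 in old IL27RA- libraries. In young cells it ran from 3184 to 5497 in IL27RA+ and from 582 to 626 in IL27RA- libraries. Of the 10 markers, 9 had a positive difference in old and 9 in young cells. Adgre1, a defining marker, stood at 0 in all 6 IL27RA- libraries and in replicate 2 of both IL27RA+ groups, and old IL27RA+ replicate 2 held the lowest macrophage sum of the IL27RA+ libraries. Mitochondrially encoded transcripts summed to 538856, 631343 and 497449 normalized counts in old IL27RA+ and to 855709, 692598 and 526728 in old IL27RA- libraries, and all 12 that passed the filter had a negative difference. Stem cell markers had a negative difference in old cells for 10 of 12, with a median of -0.29 on the log2 scale. Limma called 0 of them and 2 were lower unadjusted (background 5.38% in either direction), and the sums of the old groups did not overlap. The part of any of these in the repair gene differences was not tested.

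**Figure D2:**
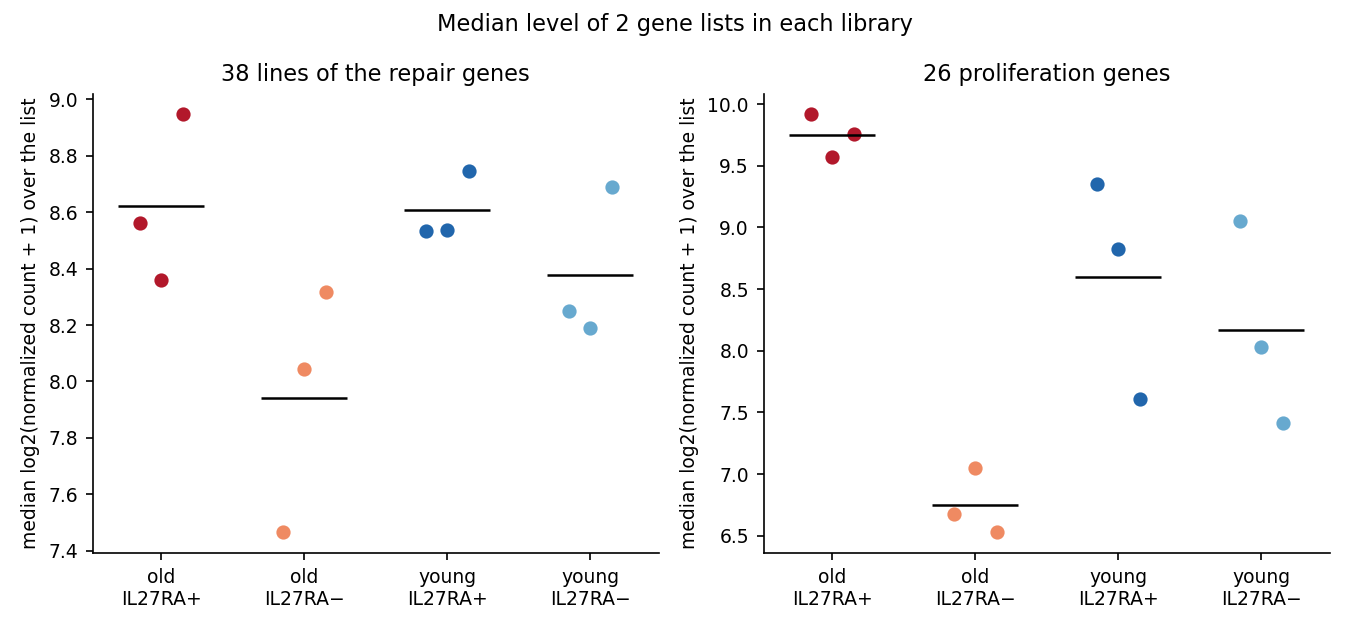
Median log2(normalized count + 1) in each library (points) over the 38 repair gene lines (left) and the 26 proliferation genes (right), with the mean of the group as a line. Old IL27RA+ libraries lie above old IL27RA- libraries in both panels, and the gap is wider for the proliferation genes. For the repair genes old IL27RA+ replicate 2 (8.36) and old IL27RA- replicate 3 (8.32) nearly touch.

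**Figure D3:**
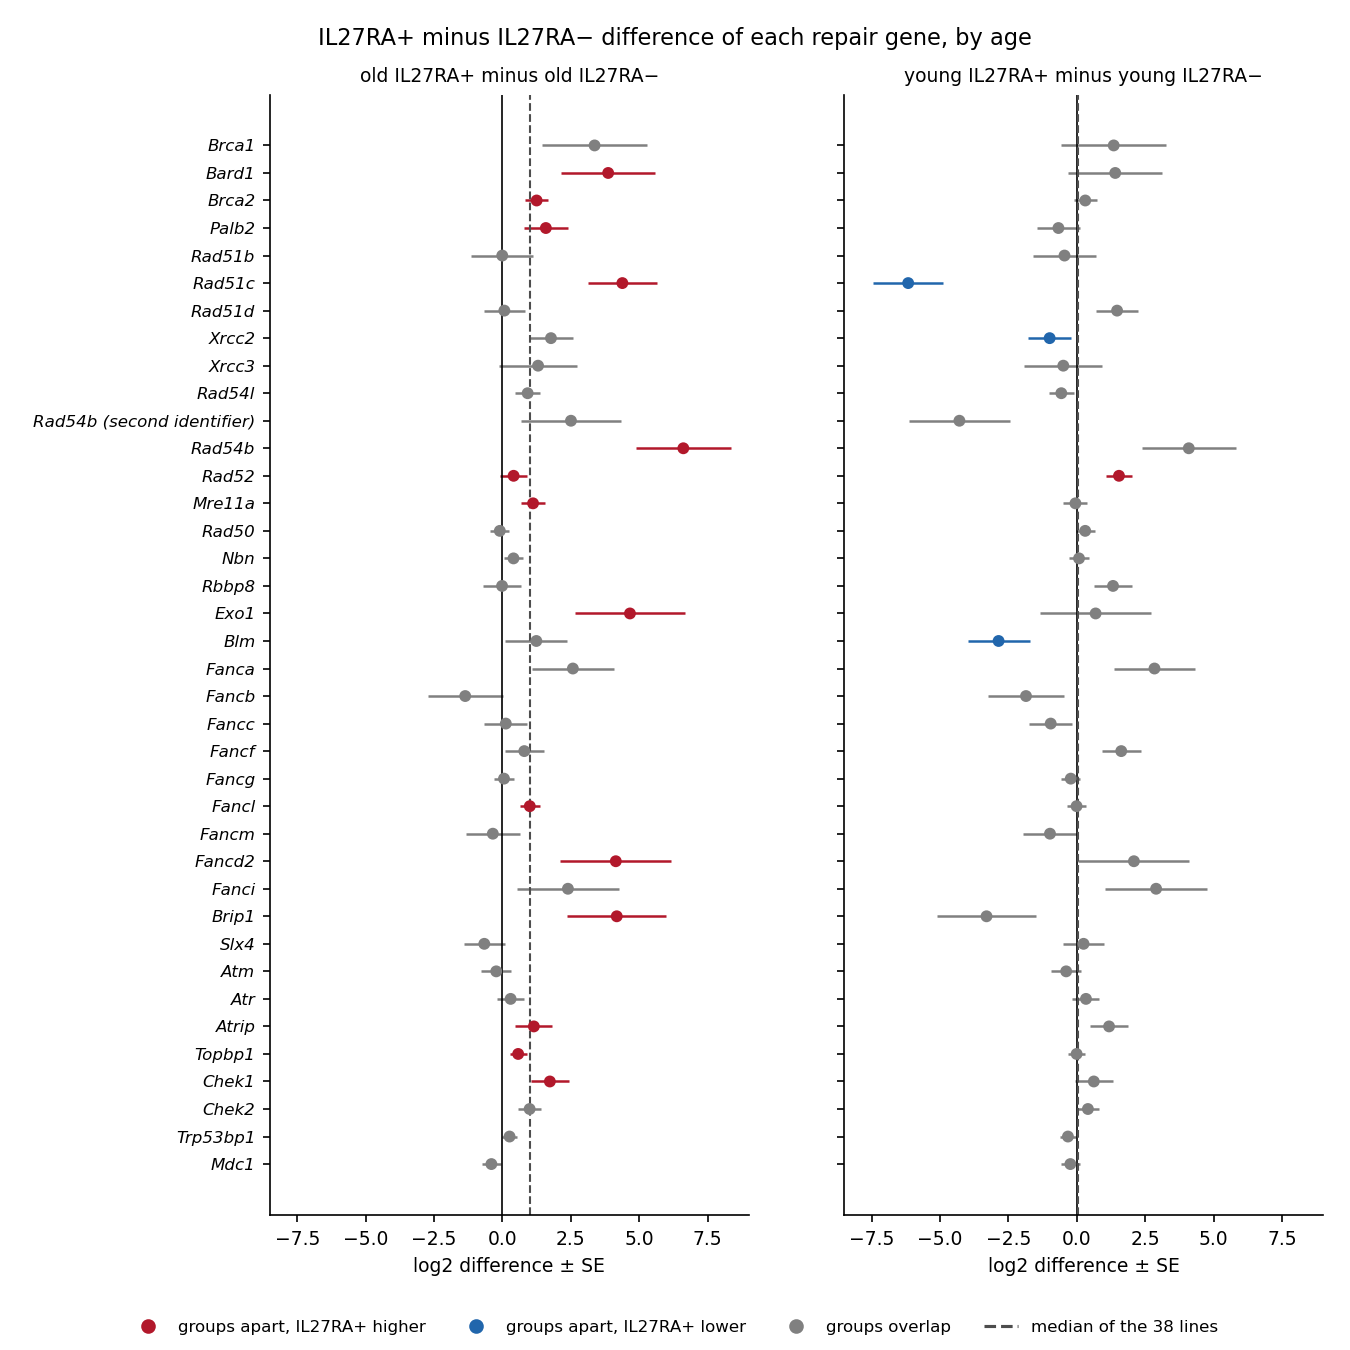
Difference IL27RA+ minus IL27RA- of each line on the log2 scale, with its standard error, in old cells (left) and young cells (right). Red and blue points mark genes whose 2 groups do not overlap, and the dashed line is the median of the 38 lines, 1.00 in old and 0.04 in young cells. Red points number 14 in old and 1 in young cells, and blue points 0 and 3.

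The BRCA mediators, Brca1, Brca2, Bard1 and Palb2, act on the broken DNA once its ends are trimmed. All 4 had a positive difference in old cells, and their sum ran from 970.4 to 1413 normalized counts in old IL27RA+ and from 421 to 458 in old IL27RA- libraries. Brca2, an inherited breast and ovarian cancer gene, had 789, 536 and 854 normalized counts in old IL27RA+ libraries and 337, 235 and 339 in old IL27RA- libraries. Every old IL27RA+ value exceeded every old IL27RA- value, and the young libraries, at 428, 452 and 571 for IL27RA+ and 401, 258 and 560 for IL27RA-, overlapped both. The old difference was 1.25 ± 0.41 on the log2 scale (limma adjusted p = 0.55).

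Bard1, the partner of BRCA1 in a ubiquitin ligase, had 151, 80.5 and 37.5 normalized counts in old IL27RA+ libraries and 0, 4.15 and 28.9 in old IL27RA- libraries. It stood at 47.0, 0 and 0 in young IL27RA+ and at 1.59, 0 and 0 in young IL27RA- libraries. Both old groups thus read Bard1 in more libraries than the young ones, where 1 library of each fraction had any read. The difference between the old fractions was 3.86 ± 1.72 (adjusted p = 0.897), on the log2 scale, and 2.65 without old IL27RA- replicate 1. Bard1 reached 10 in 5 libraries and passed the filter only through old IL27RA+ cells, the group in which it was high. Its tests against that group are thus not independent of the filter.

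Palb2, the bridge between BRCA1 and BRCA2, had 183, 319 and 473 normalized counts in old IL27RA+ libraries, against 90.5, 122 and 90.4 in old IL27RA- libraries. The old groups did not overlap, with a difference of 1.59 ± 0.79 on the log2 scale (adjusted p = 0.964). Brca1 itself stood at 74.8, 34.5 and 48.0 normalized counts in old IL27RA+ and at 0.963, 60.2 and 0 in old IL27RA- libraries. Its old groups overlapped, because old IL27RA- replicate 2 lay among the old IL27RA+ values.

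The paralogs Rad51b, Rad51c, Rad51d, Xrcc2 and Xrcc3 work in complexes with each other, and Rad51c belongs to more than one of these. Rad51c had 55.4, 49.8 and 37.5 normalized counts in old IL27RA+ libraries and 0.963, 5.19 and 0 in old IL27RA- libraries. In young cells it had 0, 4.55 and 0 in IL27RA+ and 97.9, 235 and 86.9 in IL27RA- libraries. These values rest on 144, 6, 4 and 587 reads in old IL27RA+, old IL27RA-, young IL27RA+ and young IL27RA- cells. The transcript was thus clearly read in old IL27RA+ and young IL27RA- cells and nearly missing in the other 2 groups, with no overlap in any of the 4 comparisons.

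For Rad51c the difference between IL27RA+ and IL27RA- cells was 4.38 ± 1.27 on the log2 scale in old cells (adjusted p = 0.383). In young cells it had the opposite sign, -6.17 ± 1.27 (adjusted p = 0.191). The difference between the old and the young value was 10.55 ± 1.80. By limma its p was 3.55e-05 and its adjusted p 0.175, which ranked 3 among 14803 genes but did not pass the threshold. Groups lay apart in this crossed manner, higher in old and lower in young IL27RA+ cells, for 43 genes (0.290%), and Rad51c was the 1 member among them.

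Xrcc2 is another paralog, and its values crossed less completely. It had 211, 230 and 375 normalized counts in old IL27RA+ libraries and 27.9, 51.9 and 300.1 in old IL27RA- libraries, which overlapped through replicate 3. In young cells it had 151, 95.4 and 144 in IL27RA+ and 229, 228 and 319 in IL27RA- libraries, which did not overlap. The difference between the fractions was 1.77 ± 0.80 in old cells (adjusted p = 0.907) and -0.99 ± 0.80 in young cells (adjusted p = 0.78), on the log2 scale. Without old IL27RA- replicate 1 the old value was 1.06.

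The old groups of the other paralogs overlapped. Rad51b differed by -0.01 between the old fractions, with a 95% interval of -2.45 to 2.43, and Rad51d by 0.07 (-1.54 to 1.68), both on the log2 scale. Without old IL27RA- replicate 1 the values were 0.35 for Rad51b and -0.04 for Rad51d. Xrcc3 had the widest spread of the paralogs, with 28.6, 423 and 987 normalized counts in old IL27RA+ and 4.81, 328 and 433 in old IL27RA- libraries. In both fractions replicate 1 held the low value, and the groups overlapped. The Xrcc3 difference was 1.30 on the log2 scale, and -0.71 without old IL27RA- replicate 1.

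Rad54l and Rad54b encode motor proteins that move along DNA, and Rad52 encodes a protein that anneals single strands. Rad54b, under the identifier that the GENCODE M21 annotation keeps, had 179, 107 and 146 normalized counts in old IL27RA+ libraries and 0, 2.08 and 0 in old IL27RA- libraries. The young values were 418, 72.7 and 3.76 in IL27RA+ and 0, 28.6 and 0 in IL27RA- libraries. Under this identifier it was read in all 6 IL27RA+ libraries and in 1 library of each IL27RA- group. The old difference, 6.61 ± 1.73 on the log2 scale, was the widest of any member (adjusted p = 0.271).

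By reads, old IL27RA+ cells held 431 and old IL27RA- cells 2, a ratio of 202 after scaling, with a counting interval of 55.7 to 1677 that covers counting error only and treats amplified reads as independent. The second identifier of Rad54b gave another picture, with 115, 132 and 62.1 normalized counts in old IL27RA+ and 11.6, 1.04 and 207 in old IL27RA- libraries. Summed over both lines, old IL27RA+ libraries held 294, 239 and 209 and old IL27RA- libraries 11.6, 3.11 and 207. The second identifier is not in GENCODE M21, so the split of reads between these lines is uncertain. In that annotation Rad54b also shares 35.8% of its exon bases with Fsbp on the same strand, a gene that the deposited table does not list. The summed values barely separated the old groups, through old IL27RA- replicate 3.

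In young cells the second Rad54b line ran the other way, with 0, 153 and 2.51 normalized counts in IL27RA+ and 73.2, 125 and 435 in IL27RA- libraries. The groups overlapped, with a difference of -4.29 ± 1.84 on the log2 scale (adjusted p = 0.577), against 4.09 ± 1.73 for the first line (adjusted p = 0.571). Summed over both lines, young IL27RA+ libraries held 418, 226 and 6.27 and young IL27RA- libraries 73.2, 154 and 435, which overlapped.

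Rad52 had 475.0, 650.4 and 564 normalized counts in old IL27RA+ and 352, 446 and 474.7 in old IL27RA- libraries, a difference of 0.41 ± 0.48 on the log2 scale (adjusted p = 1). Its wider difference was in young cells, with 638, 986 and 628 in IL27RA+ and 230.0, 130.2 and 531 in IL27RA- libraries. The old groups were apart by less than 1 normalized count, and Rad52 was the 1 member that lay apart and higher in IL27RA+ cells at both ages. The young difference was 1.54 ± 0.48 (adjusted p = 0.394), on the log2 scale.

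End resection starts recombination. Mre11a, the nuclease of the break-sensing complex, had 1276, 627 and 1106 normalized counts in old IL27RA+ libraries and 403, 466 and 459.6 in old IL27RA- libraries. The old groups lay apart, and the difference was 1.12 ± 0.44 on the log2 scale (adjusted p = 0.784). Its partners in the complex did not separate: Rad50 differed by -0.10 (95% interval -0.85 to 0.66) and Nbn by 0.40 (-0.36 to 1.16). For Rad50 and Nbn the old groups overlapped, as did those of Rbbp8, a cofactor of the nuclease, with a difference of -0.02 ± 0.71. Without old IL27RA- replicate 1 the values were -0.18 for Rad50, 0.17 for Nbn and 0.18 for Rbbp8, on the log2 scale.

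Exo1, an exonuclease that extends resection, had 237, 70.9 and 262 normalized counts in old IL27RA+ and 3.85, 0 and 56.5 in old IL27RA- libraries. The groups did not overlap, with a difference of 4.66 ± 2.02 on the log2 scale (adjusted p = 0.88). Blm, a helicase that works in resection and in dissolving joined strands, had 259, 6.82 and 411 normalized counts in young IL27RA+ libraries and 482, 1067 and 623 in young IL27RA- libraries. All 3 young IL27RA+ values lay below the young IL27RA- ones, with a difference of -2.86 ± 1.13 (adjusted p = 0.537). Without young IL27RA+ replicate 2, the library at 6.82, the difference was -1.06 on the log2 scale.

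The Fanconi core complex is the ubiquitin ligase of the pathway. Of its 7 members, 5 had a positive difference in old cells, with a median of 0.12 on the log2 scale, the smallest positive median of the role groups. Fancl, the subunit with the ligase activity, had 651, 962 and 574 normalized counts in old IL27RA+ libraries and 455, 293 and 337 in old IL27RA- libraries. It was the 1 core subunit whose old groups lay apart, with a difference of 1.00 ± 0.36 (adjusted p = 0.677). In young cells Fancl had 638, 534 and 627 in IL27RA+ and 470.4, 761 and 610.2 in IL27RA- libraries, and differed by -0.01 (95% interval -0.78 to 0.76). Fancg, another subunit, differed by 0.06 (-0.70 to 0.81) between the old fractions and Fancc by 0.12 (-1.56 to 1.81), both on the log2 scale. Without old IL27RA- replicate 1 Fancg differed by 0.10 and Fancc by 0.19. Negative differences in old cells were those of Fancb (-1.36 ± 1.38) and of Fancm, a DNA translocase (-0.35 ± 0.99).

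FANCD2 and FANCI are the pair that the core complex marks with ubiquitin. Fancd2 had 368, 196 and 128 normalized counts in old IL27RA+ libraries and 47.2, 34.2 and 0 in old IL27RA- libraries. The old groups lay apart, with a difference of 4.14 ± 2.03 on the log2 scale (adjusted p = 0.946). The difference was 2.35 without old IL27RA- replicate 3, the library with no Fancd2 read. Fanci overlapped, with 55.4, 31.6 and 72.7 normalized counts in old IL27RA+ and 3.85, 54.0 and 2.51 in old IL27RA- libraries.

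Brip1, a helicase that binds BRCA1, had 237, 165 and 207 normalized counts in old IL27RA+ libraries and 68.4, 1.04 and 8.79 in old IL27RA- libraries. In young cells it had 377, 6.82 and 0 in IL27RA+ and 306, 165 and 54.7 in IL27RA- libraries. The old groups lay apart while the young ones overlapped, through young IL27RA+ replicate 1. The old difference was 4.18 ± 1.80 (adjusted p = 0.879) and the young one -3.30 ± 1.80 (adjusted p = 0.659), on the log2 scale. Their difference, 7.48 ± 2.55, had an unadjusted p of 0.0106 and an adjusted p of 0.872. Slx4, a scaffold for nucleases, was the 1 gene of this role with a negative old difference, -0.67 ± 0.75, or -1.07 without old IL27RA- replicate 1.

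Checkpoint kinases and their activators pass the damage signal on. Chek1, the effector of ATR, had 386, 155 and 193 normalized counts in old IL27RA+ libraries and 123, 51.9 and 47.7 in old IL27RA- libraries. In young cells it had 555, 373 and 287 in IL27RA+ and 122, 569 and 234 in IL27RA- libraries. The old groups lay apart and the young ones overlapped. Young IL27RA- replicate 1 lay near the highest old IL27RA- value and below the other two libraries of its group. The old difference was 1.73 ± 0.70 on the log2 scale (adjusted p = 0.831).

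Chek2, the effector of ATM, had 661, 535 and 607 normalized counts in old IL27RA+ libraries and 177, 275 and 555 in old IL27RA- libraries. The old groups overlapped through old IL27RA- replicate 3, with a difference of 0.99 ± 0.42 (adjusted p = 0.861). Without old IL27RA- replicate 1 the difference was 0.61 on the log2 scale. Topbp1, which activates ATR, had 842, 966 and 785 normalized counts in old IL27RA+ and 628, 603 and 511 in old IL27RA- libraries. These groups lay apart by a small margin, with a difference of 0.57 ± 0.31 (adjusted p = 0.998). Atrip, the partner of ATR, also lay apart, by a narrower margin than Topbp1. Its difference was 1.15 ± 0.68 (adjusted p = 1), or 0.59 without old IL27RA- replicate 1. The kinases themselves did not separate: Atm differed by -0.23 (95% interval -1.41 to 0.96) and Atr by 0.30 (-0.76 to 1.35). Without the same replicate the values were 0.13 for Atm and 0.65 for Atr, on the log2 scale.

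Mediators at the break site were the 1 role with no member apart in old cells. Mdc1, which binds the marked chromatin beside a break, had 792, 962 and 1407 normalized counts in old IL27RA+ libraries and 1891, 1270.3 and 1037 in old IL27RA- libraries. The groups overlapped, and the difference was -0.41 ± 0.35 on the log2 scale (adjusted p = 1), or -0.17 without old IL27RA- replicate 1. Trp53bp1, which holds back resection and favours end joining, differed by 0.26 (95% interval -0.35 to 0.86).

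**Figure D4:**
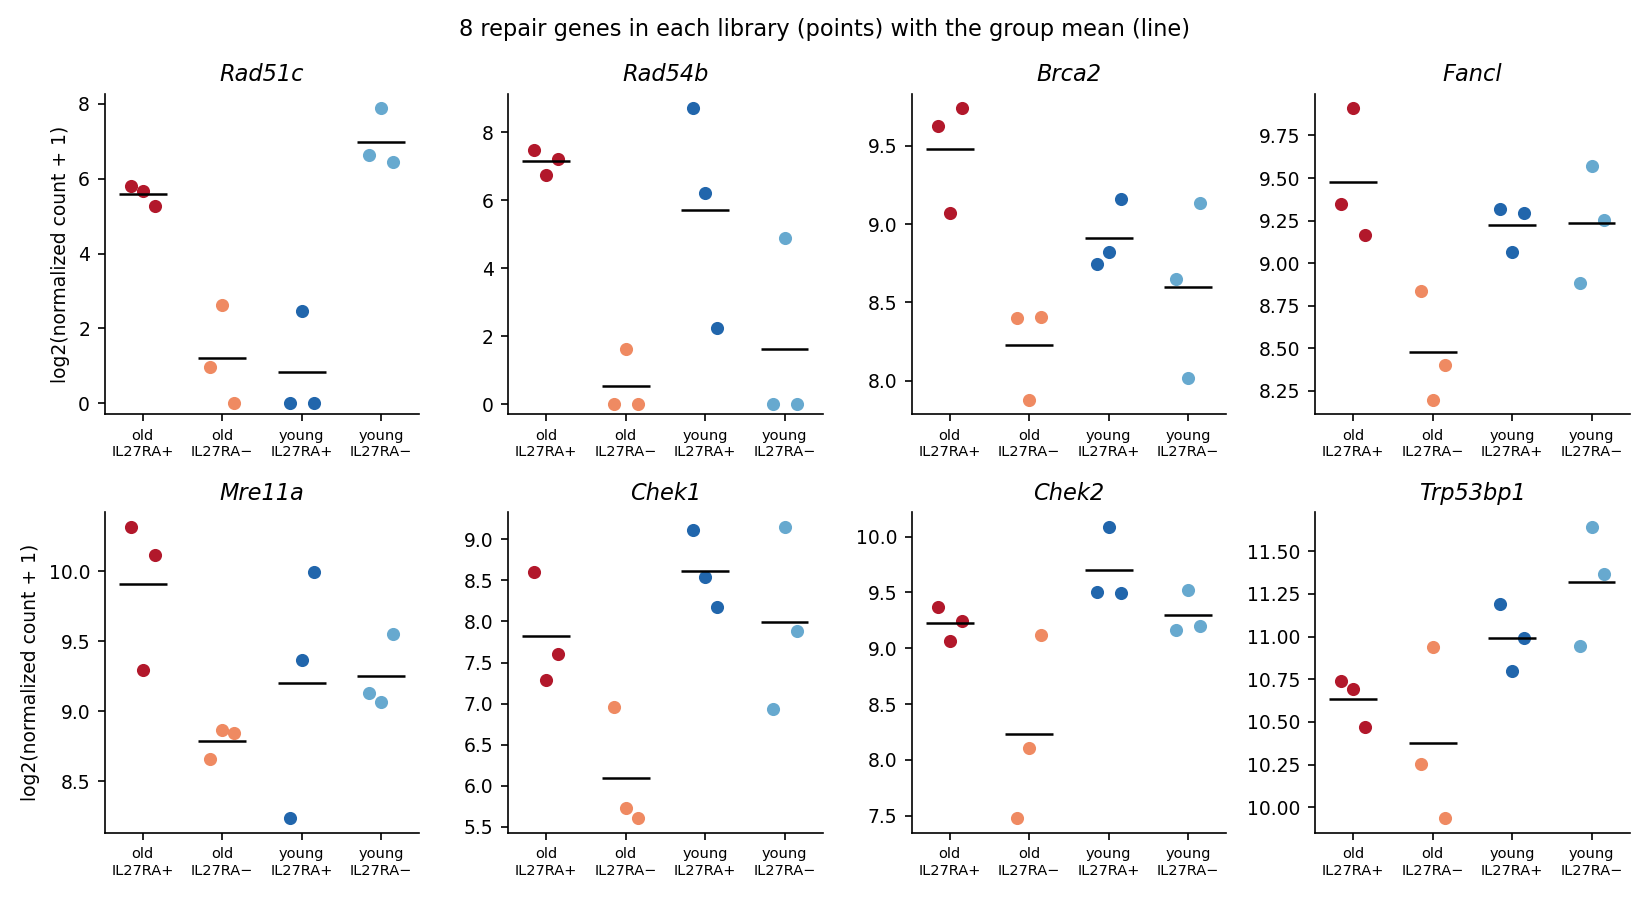
Levels of 8 repair genes as log2(normalized count + 1) in each library (points), with the mean of the group as a line; each panel has its own vertical scale, which starts above 0 except for Rad51c and Rad54b. Rad51c is high in old IL27RA+ and young IL27RA- libraries. Rad54b is shown under the identifier kept in GENCODE M21 only. It is high in all old IL27RA+ libraries and highest in young IL27RA+ replicate 1 (418 normalized counts). Brca2, Fancl, Mre11a and Chek1 are lower in every old IL27RA- library than in any old IL27RA+ library.

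In young mice the members showed no common direction. The difference between young IL27RA+ and young IL27RA- cells was positive for 19 lines and negative for 19, with a median of 0.04 on the log2 scale, as over all genes. By limma 0 members passed the test (background 0.0203%) and voom also called 0. Unadjusted, 3 were higher and 3 lower (15.8%, background 8.23%), and voom gave 6. Rad52 lay apart and higher (background 5.05%), and Rad51c, Xrcc2 and Blm lay apart and lower (background 4.73%).

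Whether the fractions differed between the ages was tested directly. The old difference exceeded the young one for 27 of 38 lines, with a median of 0.61 on the log2 scale, against 0.01 over all genes. Limma and voom called 0 members, and limma called 0% of all genes. Unadjusted, 6 members (15.8%) passed by limma and 6 by voom, against 5.19% of all genes. In order of p the 6 were Rad51c, Brip1, the second Rad54b line, Blm, Xrcc2 and Rad54l, and all were more positive in old cells. Blm had a difference of 4.10 ± 1.60 and Rad54l one of 1.49 ± 0.65, both on the log2 scale.

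Old IL27RA- cells held less of many members than young IL27RA- cells. The age difference was negative for 23 of 38 lines, with a median of -0.40 on the log2 scale, against 0.04 over all genes. When old IL27RA- replicate 1 was left out, it was positive for 12 lines, with a median of -0.42. Of the 38 age differences, 17 then moved by over 1.5 times and 5 changed sign. No member was called by limma (background 0.669%) or by voom, and 6 passed unadjusted, all lower in old cells (15.8%, background 12.5%). Voom gave 5 members at an unadjusted p under 0.05. In 9 members (23.7%) every old IL27RA- library lay below every young IL27RA- library, against 6.71% of all genes, and 0 lay above, against 7.8%. These 9 were Rad51c, Rad54l, Mre11a, Blm, Fancg, Fancl, Topbp1, Chek2 and Trp53bp1. Several lay apart by a narrow margin. The highest old IL27RA- and the lowest young IL27RA- values were 628 and 630 for Topbp1, 455 and 470 for Fancl. They were 463 and 482 for Blm and 555 and 574 for Chek2, but 5.19 and 86.9 for Rad51c.

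Rad51c had the smallest p of the members in this comparison, with a difference of -5.79 ± 1.27 on the log2 scale (adjusted p = 0.0564). With a pseudocount of 10 in place of 1 it was -3.53 and passed the threshold (adjusted p = 0.0196). Over the other alternatives its adjusted p ran from 0.0528 to 0.204. Trp53bp1 had 1220.0, 1962 and 978 normalized counts in old IL27RA- and 1970.1, 3199.5 and 2641 in young IL27RA- libraries. The groups did not overlap, though 1962 and 1970.1 nearly touched, and the difference was -0.94 ± 0.28 (adjusted p = 0.165).

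Rad54l, the motor protein, had 221, 479 and 579 normalized counts in old IL27RA- and 934, 1236 and 619 in young IL27RA- libraries. The groups lay apart, with a difference of -1.18 ± 0.46 on the log2 scale (adjusted p = 0.308), which was -0.76 without old IL27RA- replicate 1. Chek1 differed by -1.89 ± 0.70 (adjusted p = 0.281), and its groups overlapped because young IL27RA- replicate 1 held 122. Chek2, at 177, 275 and 555 normalized counts in old IL27RA- and 574, 732 and 585 in young IL27RA- libraries, lay apart with a difference of -1.06 ± 0.42 (adjusted p = 0.312), or -0.68 without old IL27RA- replicate 1. Proliferation genes were also lower in this comparison, with a median of -1.23 and 2 called lower (background 0.669% in either direction). Mitochondrially encoded genes were higher, with a positive difference for all 12 that passed the filter and a median of 0.85. Of them 2 were called (background 0.669%) and 7 lay apart (background 7.8%). Their sum ran from 526728 to 855709 normalized counts in old IL27RA- and from 439914 to 473540.4 in young IL27RA- libraries. The part of either in the repair gene differences was not tested.

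Between IL27RA+ cells of the 2 ages the members were nearly balanced. The difference between old and young IL27RA+ cells was positive for 21 lines and negative for 17, with a median of 0.24 on the log2 scale against 0.05 over all genes. Limma called 0 members (background 0.426%) and voom 0. Unadjusted, 4 passed by limma, all higher in old cells (10.5%, background 8.88%), and 3 by voom. Palb2, Rad51c and Xrcc2 lay apart and higher (background 9.09%), and Slx4, Chek2 and Trp53bp1 apart and lower (background 7.78%).

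Rad51c differed by 4.76 ± 1.27 on the log2 scale between old and young IL27RA+ cells (adjusted p = 0.17). Bard1 differed by 4.42 ± 1.72 (adjusted p = 0.46), with groups that overlapped through young IL27RA+ replicate 1. Palb2 had 183, 319 and 473 normalized counts in old IL27RA+ and 144, 27.3 and 179 in young IL27RA+ libraries, apart by a narrow margin. Its difference was 1.75 ± 0.79 (adjusted p = 0.547), and 0.91 without young IL27RA+ replicate 2. Blm differed by 2.42 ± 1.13 (adjusted p = 0.561), and by 0.63 without the same replicate, in which it stood at 6.82.

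Averaged over the ages, the difference between IL27RA+ and IL27RA- cells was positive for 26 lines, with a median of 0.42 on the log2 scale. Limma called 0 members (background 0.189%) and voom 0, and 10 passed unadjusted, all higher in IL27RA+ cells (26.3%, background 7.98%), with 9 by voom. The smallest p was that of Rad54b, with an average of 5.35 ± 1.22 (adjusted p = 0.117). The second Rad54b line averaged -0.90 ± 1.30 (adjusted p = 0.923), and the split of reads between the lines is uncertain. Averaged over the fractions, old minus young was positive for 21 lines, with a median of 0.09. When old IL27RA- replicate 1 was left out, 20 of these 38 averages moved by over 1.5 times and 6 changed sign, and the median was 0.05. Limma and voom called 0 members (background 1.85%), and 4 passed unadjusted by each (background 15.1%), 1 higher and 3 lower in old cells by limma. Trp53bp1 had an average age difference of -0.65 ± 0.20 (adjusted p = 0.124).

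Other genes of the same pathways were described from lists outside the 37. Between the old fractions, 51.9% of all genes tested had a positive difference, 7.23% lay apart and higher and 5.38% apart and lower. By limma 0.0203% were called, and 5.38% passed unadjusted in either direction. Of 22 further recombination and Fanconi genes, 17 had a positive difference between old IL27RA+ and old IL27RA- cells, with a median of 0.65 on the log2 scale, 4 apart and higher, and 0 called by limma. Of these, 3 passed unadjusted, and the smallest p values belonged to Eme1, a subunit of a structure-specific nuclease (7.61 ± 1.86, adjusted p = 0.214), and Usp1, which removes ubiquitin from FANCD2 (1.32 ± 0.39, adjusted p = 0.414). Of 17 further damage checkpoint genes, 9 were positive with a median of 0.03, 6 apart and higher and 1 apart and lower. None was called by limma and 2 passed unadjusted, Timeless (4.51 ± 1.25, adjusted p = 0.334) and Clspn (4.35 ± 1.63, adjusted p = 0.721), which protect replication forks.

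End joining is the other main route for breaks and needs no sister strand. Of its 13 genes, 9 had a positive old difference (51.9% of all genes), with a median of 0.45 on the log2 scale. Of the 13, 3 lay apart and higher (7.23% of all genes), and 0 were called or passed unadjusted. The smallest p values were those of Prkdc, the catalytic kinase of end joining (0.73 ± 0.37, adjusted p = 0.968), and Xrcc1, a scaffold of strand break repair (0.65 ± 0.34, adjusted p = 0.97). Between old and young IL27RA- cells 11 of the 13 were negative, with a median of -0.60. The recombination genes and the end joining genes thus both had positive medians in the old fractions, and the difference between the lists was not tested.

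Some transcripts cannot be assigned with certainty. In the GENCODE M21 annotation, 14 of the 37 genes share exon bases with another gene of the table, and no source used here says whether the counting used strand. Among the genes above, the shared part was 16.04% of exon bases for Atrip, 15.4% for Rad54l, 15.0% for Trp53bp1 and 13.7% for Fancl. It was 5.64% for Palb2, 3.24% for Fancd2 and 2.60% for Mre11a. The values of these genes may include reads of their neighbours, or lack reads that were set aside as ambiguous.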

How the data were processed

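RNA was sequenced from 12 libraries of 50 sorted stem cells, prepared with Smart-Seq2 per the labels' protocols. The submitters' processing notes name HTSeq, DESeq2, TopHat2 2.1.1 and FastQC 0.11.5 without saying what each did. Genome build and annotation: not given in the sources used here. The deposited table holds, per gene and library, log2 values, which from the values are log2 of reads divided by a size factor, plus 1. The authors' column for young IL27RA- replicate 2 was recorded as a score, because 1 damaged line in it holds a value that log2 cannot reach; that line and 15 identical repeats were left out of 20473, which left 20457 genes. Undoing the scaling recovered whole reads for 100% of values, within 0.001 reads. Libraries held 11669083 to 24153167 reads in genes.

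Differences were tested in R 4.3.3 with limma 3.58.1, variance trend included, in 1 fit over the 4 groups (8 residual and 6.58 prior degrees of freedom). P-values were adjusted by Benjamini-Hochberg over all 14803 genes past the filter, with a threshold of 0.05. Values after ± are standard errors, and intervals are 95% intervals of the fit. Differences are between means of log2 values. The added 1 shrinks changes of low genes, while a library at or near 0 can widen a difference well beyond the ratio of mean counts. With a pseudocount of 10 the old median of the BRCA mediators was 1.56 in place of 2.48, and that of all 38 lines 0.97 in place of 1.00. The fit was tested on simulated data, in which only genes with a read in every library were changed. That run thus did not cover changes of lines with a library at 0, such as Rad51c and Rad54b. A group was called apart from another when no value of the pair overlapped. No set test and no resampling was used. The counting interval of Rad54b is exact, conditional on its reads. Promoter windows came from RefSeq by symbol, and exon overlaps from GENCODE M21, whose build may differ from the authors'. Python 3.11.15 and scipy 1.17.1 were used for the rest.

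The members, the gene lists and the tests were chosen with earlier results of these data known. Values per library are given for the 12 members with the smallest p in old IL27RA+ against old IL27RA- cells, for the 4 with the smallest p in each other simple comparison, for the smallest p of each role group, and for any member called; Brca1, Palb2 (old fractions), Xrcc3, Fanci, Topbp1, Rad52 (old fractions) and the second Rad54b line were added after their values were seen. Alternatives were no filter, a filter of 6 libraries, a pseudocount of 10, scaling by total reads or upper quartile, voom on recovered reads, a replicate block, library weights, only the groups compared, and leaving out each library.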

Additional observations from a re-analysis of the deposited data

Results flagged for a closer look

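Rad51c was the 1 member whose fractions lay apart in opposite directions at the 2 ages. Every old IL27RA+ library (37.5 to 55.4 normalized counts) was above every old IL27RA- library (0 to 5.19), and every young IL27RA+ library (0 to 4.55) was below every young IL27RA- library (86.9 to 235). The difference between the ages in the IL27RA+ minus IL27RA- difference was 10.55 ± 1.80 on the log2 scale. By limma its p was 3.55e-05 and its adjusted p over all genes 0.175, so it failed the correction. The low values rest on 6 and 4 reads, and no cause was tested.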

How the results depend on the processing

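The number of members called stayed at 0 in all 7 comparisons under every alternative but 2. With a pseudocount of 10, 1 member, Rad51c, was called between old and young IL27RA- cells, at -3.53 on the log2 scale. Leaving out single libraries gave 0 to 1 called members for the averaged IL27RA comparison (Rad54b, without young IL27RA+ replicate 3) and 0 for each other comparison. The cause of either was not tested.

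The median difference of the members ranged from 0.62 to 1.16 between the old fractions when single libraries were left out, from -0.08 to 0.20 between the young fractions, from -0.54 to -0.34 between the ages in IL27RA- cells and from -0.014 to 0.35 in IL27RA+ cells. The value of -0.014 came without young IL27RA+ replicate 3, and 0.62 without old IL27RA- replicate 1. The young median, 0.04, was also negative without young IL27RA- replicate 1 (-0.08), without young IL27RA+ replicate 1 (-0.03) and under the stricter filter (-0.0083), so the sign of either small median depended on these choices. Members apart and higher between the old fractions numbered 15 to 19 without single libraries, 14 under total reads scaling and 15 under upper quartile scaling; members apart and lower between the ages in IL27RA- cells numbered 10 to 12, 10 and 7. These counts were chosen as alternatives after seeing the data. Leaving out a library raises such a count by itself, and the share of all genes apart was not computed under these settings. Upper quartile scaling put the median of all genes at 0.17 between the young fractions, where the members' median was also 0.17, and at 0.10 between the old fractions, where the members' median was 1.08.

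Replicate numbers are shared by the groups but are not stated to pair libraries. The correlation of deviations from the group means ran from -0.05 to 0.11 for libraries of the same number and from -0.07 to 0.07 for others. With the number as a replicate block, 0 members were called in each comparison, and 11 members were again under an unadjusted p of 0.05 between the old fractions. Depth limits the lines near the floor: Rad51c rests on 4 and 6 reads in its low groups, and Rad54b on 2.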
